A study of Mus musculus with 6 samples.

Results

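Genes of 8 carriers were examined in mouse cultures named female germline stem cells (FGSCs). The carriers were listed as moving metformin, an organic cation used against diabetes, across the cell membrane. The genes were chosen by name, by a rule that uses no measured value, but with earlier results of these data known. They make up 8 of the 55401 genes in the deposited table. RNA-seq had been carried out on 3 control libraries and on 3 libraries of FGSCs given 1 μM metformin for 24 h. Both groups were of strain C57BL/6, had been passaged more than 20 times, and grew on inactivated feeder cells of the STO mouse fibroblast line with leukemia inhibitory factor, EGF, bFGF and GDNF. The control group received no metformin. No label says whether the 3 libraries of a group came from separate cultures, so p-values measure only the spread between these libraries.

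Metformin is positively charged at body pH and crosses lipid membranes poorly, so it enters cells mainly through polyspecific carriers of the solute carrier (SLC) superfamily. Organic cation transporters (OCTs) and the plasma membrane monoamine transporter (PMAT) bring it in along the membrane potential, and multidrug and toxin extrusion proteins (MATEs) pass it out in exchange for protons. Liver, intestine and kidney are the tissues in which these carriers are best known. All of them have natural substrates too, among them monoamines, carnitine, ergothioneine and thiamine.

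Expression was measured as FPKM, a fragment count scaled to transcript length and sequencing depth, so levels of different genes are set side by side per length. The libraries held 13400000 to 14040000 fragments by an estimate from the size of the step that 1 fragment makes in short genes, and 1 fragment on a 1 kb transcript was worth 0.0712 to 0.0746 FPKM. A gene was counted as detected in a group when each of its 3 libraries held at least 3 fragments. All 8 genes of a list that every cell uses were above 0, from Tbp at 4.55 to Actb at 979 FPKM. Markers of the labelled cell type were low, with Pou5f1, Dppa3 and Dazl listed at 0 in all 6 libraries and none of 6 germ cell markers at a mean of 1 FPKM or more (summed level 0.48 to 1.38 FPKM in control and 0.33 to 0.93 in metformin libraries). None of 10 fibroblast markers reached 1 FPKM either (summed level 0.81 to 0.96 and 0.80 to 0.83). Of 10 mast cell and basophil markers, 2 averaged 1 FPKM or more, Kit at 118 and Cpa3 at 352 FPKM. These 2 genes made up most of the list's summed level. Fcer1a, Mcpt4, Tpsb2 and Tpsab1 were listed at 0, and Ms4a2 (0.897), Mcpt8 (0.808), Cma1 (0.0883) and Hdc (0.0117 FPKM) averaged under 1 FPKM.

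Of the 8 carrier genes, 1 was detected in the control group and the same 1, Slc22a5, in the metformin group. By whole fragments, Slc29a4 reached 3 in 2 of the 3 metformin libraries, so the metformin count was 2 without metformin library 2 or where 1 library sufficed. Slc22a5, Slc29a4, Slc22a4 and Slc22a3 had fragments in at least 1 library, and Slc22a2, Slc19a3, Slc47a1 and Slc47a2 were listed at 0 in all 6 libraries. As background, 29.7% of 20753 protein-coding genes were listed at 0 everywhere. The share of all genes that met the rule of 3 fragments is not given here, so the count of detected carriers has no matching background. A mean level of 1 FPKM, the lower limit for the test of treatment, was reached by 1 carrier gene of 8, by 40.7% of 332 genes with an Slc symbol, by 44.8% of protein-coding genes and by 19.2% of all genes in the table. In bulk RNA, few cells with a transcript and little of it per cell cannot be told apart.

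**Figure D1:**
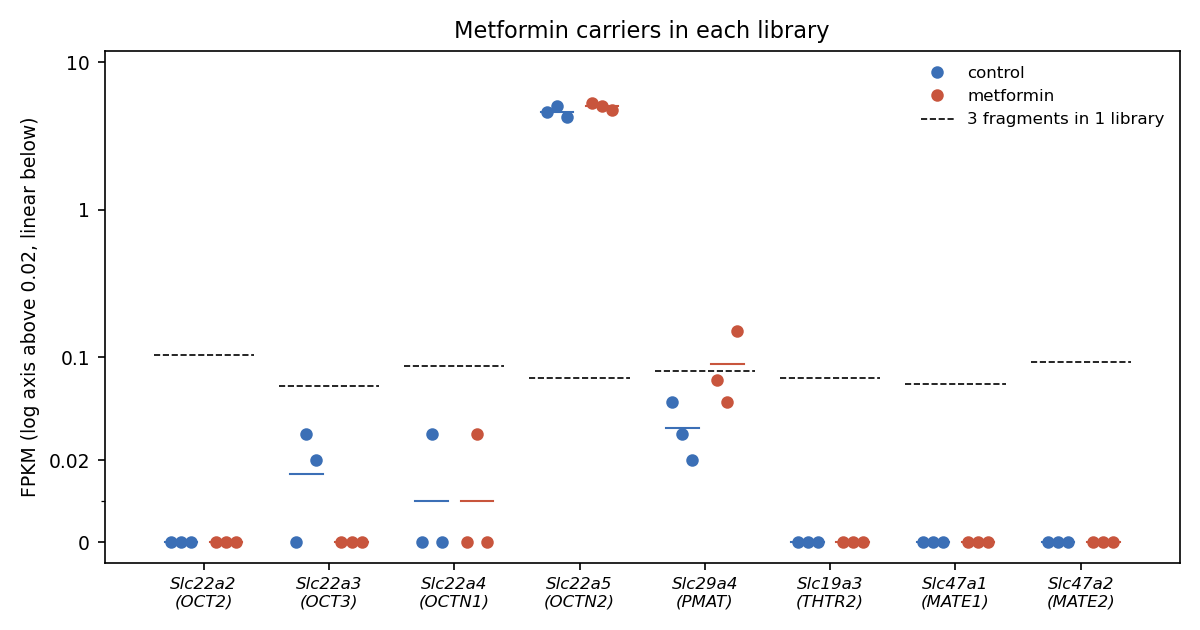
FPKM of the 8 carrier genes in each library, with the 6 uptake carriers before the 2 MATE genes. The vertical axis is logarithmic above 0.02 FPKM and linear below it, points are libraries (control in blue, metformin in red), short lines are group means, and the dashed line is the level that 3 fragments give at the annotated length. Slc22a5 lies between 4.28 and 5.34 FPKM in the 6 libraries, and no other carrier exceeds 0.15 FPKM.

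Slc22a5 encodes OCTN2, a sodium-coupled carrier that takes up carnitine with high affinity and also carries organic cations. Whether OCTN2 takes metformin into these cells was not tested. The gene (ENSMUSG00000018900) lies on the minus strand of chromosome 11 at chr11:53864542-53891660 (GRCm38). It stood at 4.59, 5.03 and 4.28 FPKM in control libraries 1 to 3 and at 5.34, 5.06 and 4.74 FPKM in metformin libraries 1 to 3. The highest value was in metformin library 1 and the lowest in control library 3, and the groups overlapped because metformin library 3 lay below control library 2.

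The Slc22a5 mean was 4.63 ± 0.377 FPKM in control libraries and 5.05 ± 0.30 FPKM after metformin (SD, n = 3 each), a ratio of 1.09. In limma's fit over the 10661 genes that averaged 1 FPKM or more, the log2 fold change of FPKM + 1 was 0.10 (SE 0.07, 95% interval -0.05 to 0.26), with an adjusted p of 0.598, and an exact two-sided permutation test of the 6 FPKM values gave p = 0.2, where 3 libraries against 3 allow no p under 0.1. The interval runs from a fold of 0.966 to one of 1.19 on the FPKM + 1 scale, so larger differences in either direction lie outside it. The log2 fold change was 0.06 without control library 3 and 0.07 without metformin library 1, and not past the threshold with any library left out. Across the table, 3 genes (0.0281% of those tested) had an adjusted p under 0.05, all of them higher after metformin, and the groups did not overlap for 17.0% of the genes tested. Slc22a5 belonged to neither set.

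The coefficient of variation of Slc22a5 was 8.13% in control and 5.95% in metformin libraries. At the annotated exon length of 3071 bases the gene rested on about 184 to 230 fragments per library, for which counting alone gives 6.59% to 7.38%, and 3 libraries per group are too few to part the one spread from the other. The 95% Poisson bounds of the single libraries, which cover counting error only, ran from 3.69 to 6.07 FPKM and all overlapped.

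Among all genes of the table, 13.2% had a higher mean level than Slc22a5, and 80 other Slc genes did. Among the genes tested, which averaged 1 FPKM or more, only 31.5% had a lower mean level than Slc22a5. Of the 135 Slc genes tested, 83 were higher and 52 lower after metformin (5580 and 5081 of all tested genes) and 0 had an adjusted p under 0.05 in limma's fit (18 had an unadjusted p under 0.05, as did 643 higher and 513 lower genes of the whole fit), with a median log2 fold change of 0.02 beside 0.0041 for all tested genes. The log2 fold change of Slc22a5 was larger in size than that of 80.8% of the tested genes. Its SE, 0.0654, was also above the median of 0.0512 for tested genes, of which 33.3% had a larger SE. The genes closest to Slc22a5 over the 6 libraries, by the root mean square difference of log2(FPKM + 1), were H2-Q7 (0.0345), Osbpl5 (0.0411) and 2610318N02Rik (0.0461). H2-Q7 is a non-classical class I histocompatibility gene and Osbpl5 encodes an oxysterol-binding protein relative.

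Slc22a5 shares part of its sequence with a neighbouring family member, Slc22a21, which encodes another carnitine carrier of the OCTN group in mice. In the GENCODE M1 protein-coding transcripts, 817 of 3116 stretches of 50 bases in Slc22a5 transcripts (26.2%) also occurred in a transcript of another gene, 812 of them in Slc22a21 and 5 in Slc22a4. The coding sequences of the main transcripts were 90.4% identical between Slc22a5 and Slc22a21 over 1674 aligned bases, and 76.9% identical between Slc22a5 and Slc22a4. Slc22a21 was listed at 0 in all 6 libraries. How fragments with several matches were counted is not given in the sources used here, and Gapdh and Ppia, which have many pseudogene copies, stood at 10.1 and 7.83 FPKM, so the level of Slc22a5 is uncertain by an amount that was not tested.

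Slc22a4 encodes OCTN1, a carrier of ergothioneine and organic cations, and its start lies 136 kb upstream of that of Slc22a5 on the same strand (ENSMUSG00000020334, chr11:53983123-54028090). It was listed at 0, 0.03 and 0 FPKM in control libraries 1 to 3 and at 0, 0.03 and 0 FPKM in metformin libraries 1 to 3. Each 0.03 was 1 fragment. The gene was thus under the floor of 3 fragments (0.0837 to 0.0877 FPKM) in both groups, and no fold change is given.

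Promoter sequence is shown for this pair of neighbours and for Slc22a3, since Slc22a5 and Slc22a4 have similar CpG counts and far apart levels, and Slc22a3 has few CpGs. The 250 bases before the RefSeq transcript start (GRCm38.p6) are given 5′ to 3′ on the gene's strand, the minus strand in each case, and capitals mark every CG dinucleotide, which reads the same on both strands. They lie at chr11:53891704-53891953, chr11:54028105-54028354 and chr17:12507705-12507954 in the order shown.
Slc22a5: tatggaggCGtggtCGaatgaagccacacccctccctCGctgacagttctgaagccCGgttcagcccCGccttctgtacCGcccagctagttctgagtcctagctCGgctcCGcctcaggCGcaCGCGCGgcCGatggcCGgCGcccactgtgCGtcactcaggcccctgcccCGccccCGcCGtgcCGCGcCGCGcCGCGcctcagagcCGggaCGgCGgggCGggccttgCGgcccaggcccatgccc
Slc22a4: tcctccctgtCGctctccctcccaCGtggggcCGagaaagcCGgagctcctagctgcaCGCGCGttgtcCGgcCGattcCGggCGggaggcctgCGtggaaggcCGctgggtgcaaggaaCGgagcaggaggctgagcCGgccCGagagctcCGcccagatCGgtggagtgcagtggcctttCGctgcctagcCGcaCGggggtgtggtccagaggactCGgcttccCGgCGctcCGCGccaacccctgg
Slc22a3: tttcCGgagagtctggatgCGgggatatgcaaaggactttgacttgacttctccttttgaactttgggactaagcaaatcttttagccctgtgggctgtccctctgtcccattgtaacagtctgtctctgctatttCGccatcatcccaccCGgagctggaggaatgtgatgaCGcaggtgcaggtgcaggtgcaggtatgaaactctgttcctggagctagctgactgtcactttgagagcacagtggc

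The Slc22a5 promoter held 30 CGs, a number reached by 5.94% of 32851 RefSeq promoters of the same length. The Slc22a4 promoter held 26, reached by 9.59%, and the Slc22a3 promoter 5, reached by 55.6%, around the median of 6. RefSeq entries were matched for 7 of the 8 carrier genes, and the others held 18 CGs (Slc47a2), 16 (Slc29a4), 8 (Slc19a3) and 6 (Slc22a2). Of 2228 genes with at least 26 CGs, 71.1% averaged 1 FPKM or more, against 12.3% of 6046 genes with fewer than 8. Slc22a5 was thus among the larger share of CG-rich genes, and Slc22a4, with a similar promoter by this count, was not. These counts describe the letters of the window only.

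Around Slc22a5, within 200 kb of its start, 9 genes are protein-coding in GENCODE M1 and 3 of them averaged 1 FPKM or more. Beside Slc22a5 these were Irf1, an interferon-regulated transcription factor, at 4.41 ± 0.426 FPKM in control and 4.34 ± 0.0351 FPKM in metformin libraries, and Rad50, a DNA break repair protein, at 22.4 ± 1.02 and 21.4 ± 0.735 FPKM. Neither passed the test in limma's fit (adjusted p = 0.946 and 0.607). On the other side of Slc22a5 lie Slc22a21 and Pdlim4, both listed at 0 in all 6 libraries, and Slc22a4. No gene of the table overlaps Slc22a5.

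**Figure D2:**
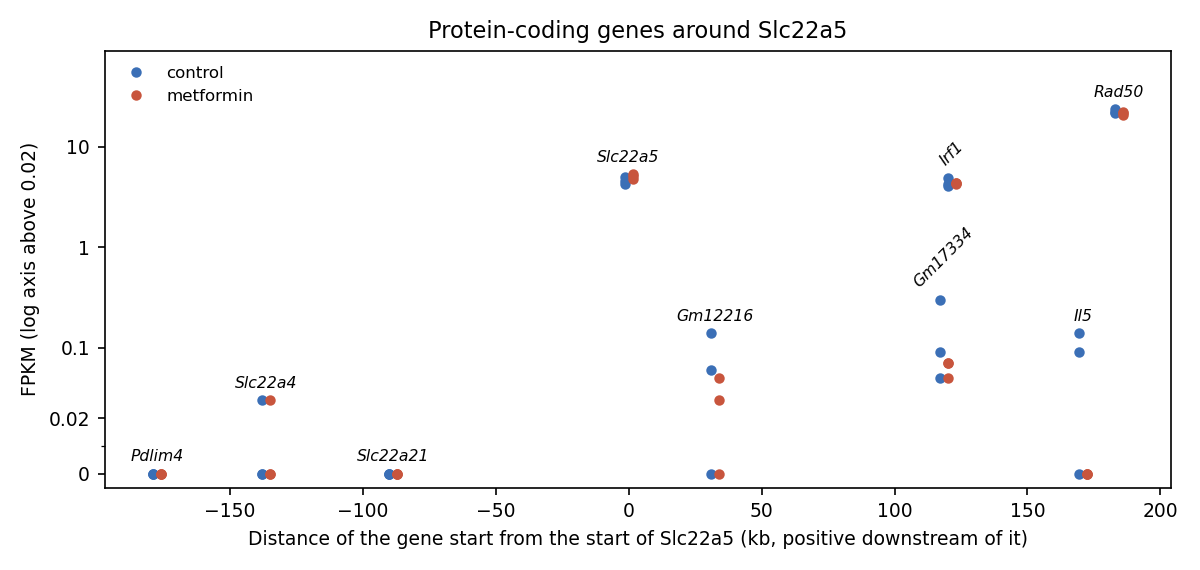
FPKM of the 9 protein-coding genes within 200 kb of the start of Slc22a5, by the distance of their starts from it in kb (positive downstream in the direction of Slc22a5), with 1 point per library, control in blue and metformin in red. The vertical axis is logarithmic above 0.02 FPKM. Levels above 1 FPKM are seen for Slc22a5, Irf1 and Rad50, while Slc22a4 and Slc22a21 upstream are at 0.03 FPKM or less.

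Slc29a4 encodes PMAT, which carries monoamines and metformin without needing sodium. The gene (ENSMUSG00000050822) lies on the plus strand at chr5:142692512-142722490. It was listed at 0.05, 0.03 and 0.02 FPKM in control libraries 1 to 3 and at 0.07, 0.05 and 0.15 FPKM in metformin libraries 1 to 3. The only whole numbers of fragments that fit all 6 values were 2, 1 and 1 in control libraries and 3, 2 and 6 in metformin libraries, at lengths of 2862 to 2898 bases. At the annotated exon length of 2789 bases, metformin library 1 would hold 2.74 fragments, under the floor of 0.0766 FPKM drawn for that length. The groups overlapped at 0.05 FPKM, and 6 of the 11 fragments of the metformin group came from library 3.

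The Slc29a4 mean was 0.0333 ± 0.0153 FPKM in control and 0.09 ± 0.0529 FPKM in metformin libraries (SD, n = 3 each), with 4 and 11 fragments in all. In limma's fit of every gene above 0 in at least 1 library, which called 0.0307% of 22809 genes (7 genes, but 15 without metformin library 1 and 16 without metformin library 3), the log2 fold change of FPKM + 1 was 0.08 (SE 0.04, 95% interval -0.02 to 0.17) with an adjusted p of 0.736, and 0.04 without metformin library 3. That scale understates a change at such a level, and with a pseudocount of 0.1 the value was 0.48. The exact two-sided permutation test gave p = 0.2. No difference between the groups was detected, and what size of difference this depth could show was not tested.

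Slc22a3 encodes OCT3, a carrier of monoamines, histamine and metformin found in many tissues. The gene (ENSMUSG00000023828, chr17:12418960-12507704, minus strand) was listed at 0, 0.03 and 0.02 FPKM in control libraries 1 to 3 and at 0 in each metformin library. Control library 2 held 1 or 2 fragments and control library 3 held 1. Both groups were under the floor of 0.0610 to 0.0639 FPKM, so no fold change is given.

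**Figure D3:**
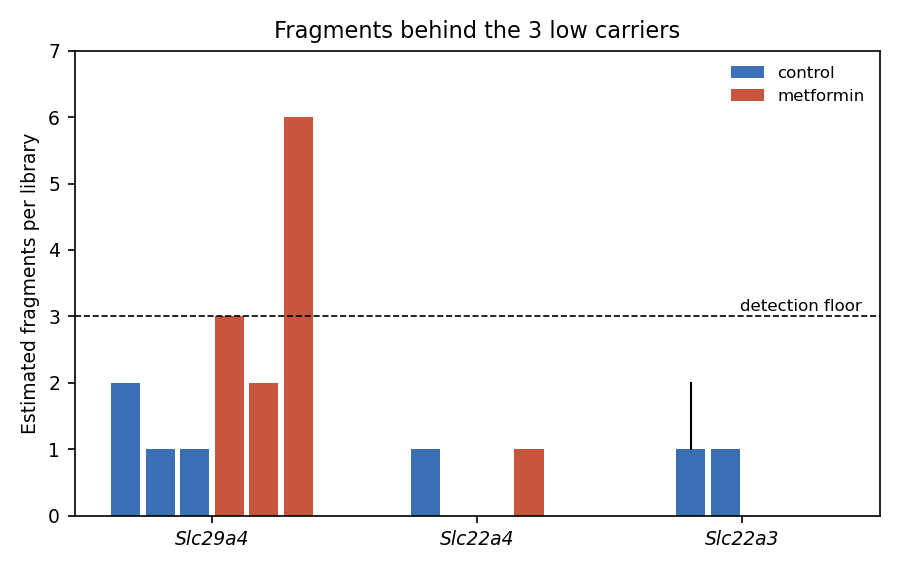
Estimated whole fragments of Slc29a4, Slc22a4 and Slc22a3 in each library, as bars in the order control 1 to 3 (blue) and metformin 1 to 3 (red), with 3 fragments as the dashed floor. A thin line marks the library of Slc22a3 in which 1 or 2 fragments fit the value. Slc29a4 reaches the floor in metformin libraries 1 and 3 with 3 and 6 fragments, and every other bar is at 2 or less. The 3 fragments of metformin library 1 rest on the fitted length, and its 0.07 FPKM lies under the floor at the annotated length.

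Slc22a2 encodes OCT2, known for uptake of metformin into kidney tubule cells, and Slc19a3 encodes THTR2, a thiamine carrier of the intestine that also accepts metformin. Slc22a2 (ENSMUSG00000040966, chr17:12584132-12628488, plus strand) and Slc19a3 (ENSMUSG00000038496, chr1:83012523-83038448, minus strand) were listed at 0 in all 6 libraries. Over the 6 libraries, a count of 0, taken as under 3 fragments over all 6, allows a level of up to 0.0168 FPKM for Slc22a2 and 0.0117 FPKM for Slc19a3. For a single library the limit of 3 fragments was 0.0994 to 0.104 FPKM and 0.0693 to 0.0726 FPKM.

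The efflux carriers were not detected either. Slc47a1 encodes MATE1, which passes metformin into bile and urine, and Slc47a2 encodes its close relative MATE2. Slc47a1 (ENSMUSG00000010122) and Slc47a2 (ENSMUSG00000069855) are neighbours on the minus strand, at chr11:61343401-61378345 and chr11:61301631-61342860. Both were listed at 0 in all 6 libraries, which by the same limit allows a level of up to 0.0107 FPKM for Slc47a1 and 0.0149 FPKM for Slc47a2. No stretch of 50 bases of either gene occurred in another gene's transcript, and the same held for Slc22a3, Slc29a4 and Slc19a3. For Slc22a2, 101 of 2100 such stretches (4.81%) also occurred in a transcript of 1 other gene, so its limit carries the same uncertainty on fragments with several matches as the level of Slc22a5. The genes that overlap Slc22a3, Slc19a3 or Slc47a2 in position were at 0 as well. Markers of the epithelia in which these carriers are known were near 0, with a summed level over 8 genes (among them Alb, Umod and Lrp2) of 0 to 0.05 FPKM in control and 0.01 to 0.12 FPKM in metformin libraries.

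Genes that share a family, a substrate or a regulator with the carriers were followed in 8 lists, of which 84 genes were matched and 33 averaged 1 FPKM or more. After metformin, 22 of the 33 were higher and 11 lower, with a median log2 fold change of 0.02. None had an adjusted p under 0.05 in limma's fit (lowest 0.367), and 2, Tkt and Cebpb, had an unadjusted p under 0.05, both higher. At that p the whole fit held 643 genes higher and 513 lower, a tilt that turned with equal sums per library (568 and 584) and with quantile normalization (559 and 579). The groups did not overlap for 4 of the 33, Slc22a23, Tkt, Usf1 and Cebpb, beside 17.0% of all genes tested.

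Other family members differed widely in level. Of 20 relatives in the SLC22 family, 15 were listed at 0 in all 6 libraries and 1, Slc22a23, an orphan member, reached 1 FPKM, at 3.42 ± 0.0608 FPKM in control and 3.27 ± 0.0608 FPKM in metformin libraries (adjusted p = 0.746). Slc22a18 stood at 0.487 ± 0.151 and 0.730 ± 0.278 FPKM. All 5 relatives of PMAT and THTR2 were expressed above 1 FPKM. The nucleoside carrier Slc29a1 was at 48.4 ± 0.796 and 49.4 ± 1.84 FPKM, the folate carrier Slc19a1 at 22.8 ± 0.828 and 22.8 ± 0.631 FPKM, and the thiamine carrier Slc19a2 at 12.6 ± 0.563 and 12.2 ± 0.824 FPKM. Slc19a3 was therefore at 0 in libraries where the other thiamine carrier of its family was above 11 FPKM.

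Carnitine, the natural substrate of OCTN2, is made from trimethyllysine and carries fatty acids into mitochondria. Of 10 matched genes of this pathway, 6 averaged 1 FPKM or more, with a median log2 fold change of 0.04 beside 0.0041 for all tested genes, and none passed the test (lowest adjusted p 0.547). The mitochondrial carnitine carrier Slc25a20 went from 3.74 ± 0.253 to 4.10 ± 0.150 FPKM (log2 fold change 0.11, adjusted p = 0.547). The palmitoyltransferases Cpt1a and Cpt2 were at 18.7 ± 0.323 and 17.8 ± 1.34 FPKM in control and at 19.4 ± 0.668 and 18.2 ± 1.52 FPKM in metformin libraries. Bbox1, the enzyme of the last step of carnitine synthesis, and Slc6a14, an amino acid carrier that also takes carnitine, were listed at 0 throughout. Transcripts of the uptake carrier gene were thus counted, at the uncertain level given above, and none of the last enzyme of synthesis were.

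Monoamines are substrates of OCT3, OCT2 and PMAT. Tph1, which starts serotonin synthesis, was at 59.4 ± 0.842 FPKM in control and 60.6 ± 1.66 FPKM in metformin libraries, and Slc18a2, the vesicular monoamine carrier, at 28.0 ± 0.283 and 28.0 ± 0.512 FPKM. The degrading enzyme Maoa was at 21.6 ± 0.119 and 21.0 ± 0.643 FPKM. The plasma membrane carriers Slc6a3 and Slc6a4 were listed at 0, and Slc6a2 had a mean of 0.025 FPKM. Hdc, which makes histamine, had a mean of 0.0117 FPKM.

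In the thiamine pathway, Tkt, a thiamine-dependent enzyme of the pentose phosphate pathway, stood at 109, 109 and 112 FPKM in control libraries and at 121, 114 and 114 FPKM in metformin libraries. The groups did not overlap and the log2 fold change was 0.08 (SE 0.03), with an adjusted p of 0.404.

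Of 6 choline carriers, which take up another organic cation, Slc44a2 (11.04 ± 0.0757 and 11.4 ± 0.335 FPKM) and Slc44a1 (2.49 ± 0.285 and 2.34 ± 0.321 FPKM) reached 1 FPKM. Of 9 drug efflux pumps 4 did, led by Abcc4 at 13.3 ± 0.481 and 14.1 ± 0.577 FPKM, Abcb1b at 11.7 ± 0.245 and 11.5 ± 0.848 FPKM and Abcc1 at 8.39 ± 0.0379 and 8.54 ± 0.183 FPKM. Transcripts of ABC efflux pumps were thus measured where the MATE genes were listed at 0. None of the 6 genes passed the test.

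Of 15 factors and adaptors linked with carrier genes, 8 reached 1 FPKM. The membrane adaptor Slc9a3r1 was at 73.0 ± 2.84 and 74.5 ± 3.77 FPKM, and Nfe2l2, the oxidative stress factor, at 27.8 ± 0.802 and 27.4 ± 1.55 FPKM. Cebpb, a basic leucine zipper factor, stood at 24.4, 25.2 and 25.1 FPKM in control libraries and at 27.9, 26.4 and 26.2 FPKM in metformin libraries. These groups did not overlap, and the log2 fold change was 0.11 (SE 0.03) with an adjusted p of 0.367. Hnf4a, a liver and kidney factor, and Ppara, a fatty acid sensor of liver, were listed at 0 in all 6 libraries.

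**Figure D4:**
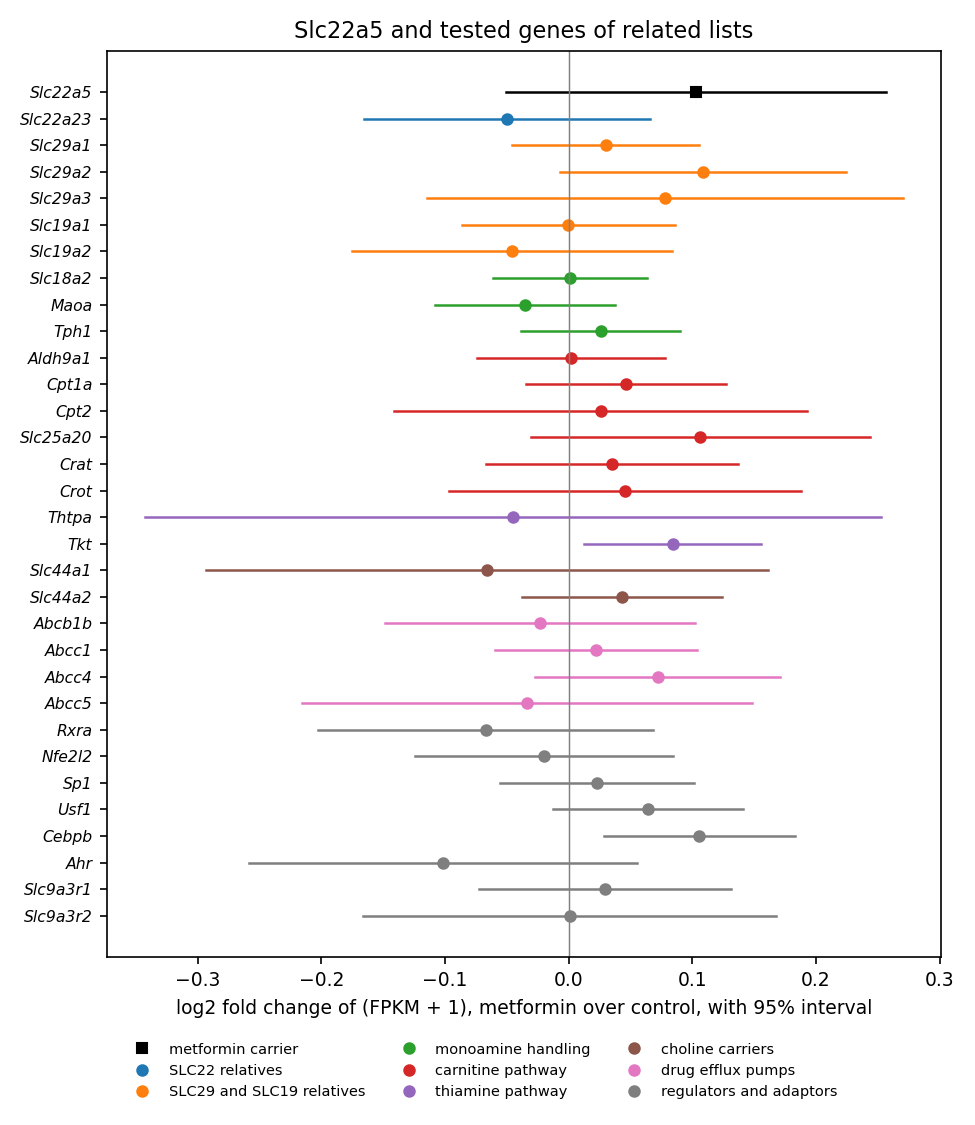
Log2 fold change of FPKM + 1, metformin over control, with its 95% interval from limma, for Slc22a5 (black square) and tested genes of the 8 related lists (colours). Points right of the grey line at 0 had a higher fitted level after metformin. The estimate for Slc22a5, 0.10, lies within the range of the related genes, and none of the genes drawn had an adjusted p under 0.05.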

How the data were processed

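RNA-seq values of 3 control and 3 metformin libraries were used. The authors deposited FPKM for 55401 Ensembl genes, 1 column per library, and 0 columns of samples were left unused. The submitters' processing notes name HISAT2, DESeq2 and mm9, with no roles, whereas gene positions in the table are those of GRCm38. The gene annotation, the counter and the treatment of fragments with several matches are not given in the sources used here. Symbols were found for 32589 genes by Ensembl identifier.

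The carrier genes and all lists were chosen with earlier results of these data known. Fragments per library were estimated from genes with a single exon under 400 bp, where 1 fragment makes a visible step in FPKM (324 to 349 values per library, 100% within 0.1 of a whole fragment). Whole fragments of low genes were found in the same way, over lengths around the GENCODE M1 exon length. The floor of 3 fragments, also used as the limit for a count of 0, and the counting bounds of Slc22a5 (exact Poisson, 95%, two-sided) cover counting error only.

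Values were tested as log2(FPKM + 1), with a pseudocount of 1, for genes that averaged 1 FPKM or more, by limma 3.58.1 in R 4.3.3 (lmFit, eBayes with a trend, two-sided, Benjamini-Hochberg adjustment over all genes tested, threshold 0.05). Slc29a4 was under that limit and was read from the fit of every gene above 0 in at least 1 library. The fit of genes that averaged 1 FPKM or more was also run on simulated data with independent normal noise. That run did not cover the fit used for Slc29a4. A single gene was tested by exact permutation of the 6 values. The genes named were all 8 carriers, any called gene of a list and otherwise up to 3 with the highest mean FPKM, genes of the thiamine, carnitine and monoamine lists (some are not reported here), and the 3 genes nearest to a carrier in level. Hnf4a, Ppara, Usf1, the neighbours of Slc22a5 and the marker genes fall outside this rule and were named after their values were seen. Alternatives were a pseudocount of 0.1, no filter, filters of 0.1 and 10 FPKM, equal sums (TPM), quantile normalization, median centring, no trend, a replicate block, each library left out, and other limits for detection. Symbols and promoters came from RefSeq tables (GRCm38.p6) and transcripts from GENCODE M1. Python 3.11.15 and matplotlib 3.10.9 were used.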

Additional observations from a re-analysis of the deposited data

How the results depend on the processing

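The log2 fold change of Slc22a5 stayed positive and under the threshold in all 14 alternatives that held it, from 0.06 to 0.15 with adjusted p from 0.578 to 0.824 in limma. The lowest value came without control replicate 3 and the highest, 0.153, without control replicate 2, with no library left out giving a call. A filter of 10 FPKM leaves Slc22a5 out. Slc29a4 also kept its direction in all 12 alternatives, from 0.04 to 0.48 with adjusted p from 0.709 to 0.820, and was 0.04 without metformin replicate 3, the library with 6 fragments, and 0.102 without metformin replicate 2. The number of genes called, 3 in the fit reported, was 7 with no filter (4 higher, 3 lower) and 3 to 4 with a library left out.

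The number of carriers detected was 1 in each group, and became 2 in each group at 1 or more fragments. In the metformin group it was also 2 when 1 library sufficed, and 1 to 2 with a library left out, the 2 being reached without metformin replicate 2. The added gene was Slc29a4 each time. Limits of 10 fragments, 0.1 FPKM or 1 FPKM gave 1 in both groups.

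The deviations of same-numbered libraries correlated at -0.0317, 0.0181 and 0.0479, with a mean of 0.0114 beside -0.00568 for different numbers. No variation shared by same-numbered libraries was thus seen. Whether the libraries were prepared in pairs cannot be told from these values. In the fit with a replicate block, the log2 fold change of Slc22a5 was 0.10 (adjusted p = 0.590), and 2 genes were called. In the fit of every gene above 0 in at least 1 library, Slc29a4 had 0.08 with the block (adjusted p = 0.779), and 0 genes were called by limma where 7 were called without it (830 higher and 655 lower at an unadjusted p under 0.05 with the block). A library left out of that fit gave 6 to 16 calls, with 15 without metformin replicate 1 and 16 without metformin replicate 3, and Slc29a4 was called in none. Depth limits the low carriers, with 1 fragment worth 0.0203 to 0.0347 FPKM on these carriers.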
